A study of Mus musculus with 8 samples.

Results

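The genes that copy DNA and supply its building blocks were followed in cells grown from mouse progenitors and sorted as T lineage or lineage-negative cells. The set holds 45 genes, taken as a list of replication fork, origin, histone deposition and deoxynucleotide genes, out of 19938 genes that the arrays measured with probesets of exactly 1 gene. All 45 members were measured, by 48 probesets, because Pcna, Rpa3 and Tk1 have 2 probesets each. A probeset is a group of short probes whose summarised brightness stands for 1 transcript, and values are log2 levels, so that a difference of 1 is a doubling. Gene expression was measured on 8 arrays. Lymphoid primed multipotent progenitors (Lineage marker-Sca+kit+Flt3high cells of the bone marrow) from Tcf7-/- or Tcf7+/+ mice were grown for 4 days on OP9-DL4, a stromal cell line that presents a Notch ligand, with IL1 at 1 ng/ml and Flt3L at 5 ng/ml. Both genotypes belong to a line that had been backcrossed for about 6 generations and was kept on a mixed background; the labels do not give ages. Tcf7 encodes Tcf1, a transcription factor of the T lineage. CD45.2+ cells were then sorted by surface markers. The deficient lineage-negative group (deficient LN, Mac1-Gr1-Thy1-CD25-) has 3 arrays from 3 mice, the wildtype lineage-negative group (wildtype LN, the same gate) has 3 arrays from 3 mice, and the wildtype T lineage group (Thy1+CD25+) has 2 arrays. The labels do not say whether the 2 T lineage replicates came from separate mice, so p-values measure only the spread between these samples. T lineage cells of the deficient genotype were not compared, because the labels state that none developed. Tcf7 itself was not analysed here, which leaves the deficient and wildtype labels unchecked in every genotype comparison. Each array took 10 ng of RNA that was amplified before labelling, per the labels' protocols.

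Replication starts when the origin recognition complex, with Cdc6 and Cdt1, loads the ring of Mcm proteins onto DNA. The kinase Cdc7, Mcm10, Cdc45 and the Gins complex then turn this ring into a working helicase, and primase, the replicative polymerases, the sliding clamp Pcna and its loader copy both strands while ribonucleotide reductase and thymidylate synthase supply deoxynucleotides. Many of these genes are textbook targets of the E2F transcription factors, which drive their transcription as cells enter S phase, and early T cell progenitors are known for dividing repeatedly after they meet Notch ligand.

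The promoters come first, because E2F motifs can be read in their letters. RefSeq start sites of build GRCm38.p6 were available for 37 of the 45 members, in 44 windows that run from 250 bases before to 50 bases after the start. A consensus E2F motif was searched as TTTCCCGC, TTTCGCGC, TTTGCCGC or TTTGGCGC on both strands. It was found in 13 of 37 members (35.1%), against 704 of 27025 genes with such windows (2.6%). These 27025 genes were not limited to those measured or expressed here, and no set of like base content was counted. The CCAAT box, a common promoter element bound by the factor NF-Y and searched on both strands, was found in 23 of 37 members (62.2%), against 41.1% of all genes. Matches are descriptions of letters and not measured binding, and the table had no entry for Gins1, Gins2, Gins4, Gmnn, Mcm4, Pole, Prim2 and Rfc2. The 170 bases before the start are shown for 5 members, in lower case and in the direction of the gene, with E2F motif and CCAAT matches in capitals. Mcm6 was chosen for having the most E2F matches before its start (3, the first pair overlapping), Mcm7 and Orc1 because they hold an E2F match and rose in T lineage cells, Gins3 because it holds one and did not, and Pold2 because it was among the largest rises and holds no E2F match in its window. The Orc1 stretch lies at chr4:108579284-108579453 on the plus strand, inside the annotated extent of the gene. Mcm7 is shown at chr5:138171884-138172053 on the minus strand, likewise inside the annotated extent. The Mcm6 (chr1:128359706-128359875, minus strand), Gins3 (chr8:95633389-95633558, plus strand) and Pold2 (chr11:5878257-5878426, minus strand) stretches end at the base before the gene begins.
Orc1: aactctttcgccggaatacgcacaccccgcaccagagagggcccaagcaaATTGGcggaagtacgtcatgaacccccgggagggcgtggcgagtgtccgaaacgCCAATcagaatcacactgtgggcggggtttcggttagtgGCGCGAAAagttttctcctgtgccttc
Mcm7: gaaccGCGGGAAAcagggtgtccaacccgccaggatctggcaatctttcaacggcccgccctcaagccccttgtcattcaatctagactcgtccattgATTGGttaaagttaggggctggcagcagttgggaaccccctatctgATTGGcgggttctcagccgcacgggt
Mcm6: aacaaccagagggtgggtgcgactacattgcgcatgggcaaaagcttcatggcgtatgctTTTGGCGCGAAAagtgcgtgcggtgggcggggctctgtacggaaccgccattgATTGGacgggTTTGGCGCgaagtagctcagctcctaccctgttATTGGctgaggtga
Gins3: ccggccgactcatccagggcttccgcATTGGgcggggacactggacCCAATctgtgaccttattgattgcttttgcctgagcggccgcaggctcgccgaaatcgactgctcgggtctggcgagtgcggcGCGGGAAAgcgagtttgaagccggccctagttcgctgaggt
Pold2: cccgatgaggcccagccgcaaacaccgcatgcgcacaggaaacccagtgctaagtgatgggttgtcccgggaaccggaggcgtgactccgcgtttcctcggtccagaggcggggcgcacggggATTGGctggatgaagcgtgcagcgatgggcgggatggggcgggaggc

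The 13 members with an E2F match were Mcm3, Mcm5, Mcm6, Mcm7, Gins3, Orc1, Cdc6, Cdt1, Pola1, Pold1, Pole2, Rfc3 and Lig1. Together they held 19 matches, 5 of these genes held more than 1, and in 8 of them a match lay before the start. A CCAAT box accompanied the E2F motif in 8 of the 13. Of the Mcm genes of the helicase ring, 4 of the 5 with a window held the motif and 5 of 5 held a CCAAT box. None of the 5 nucleotide supply genes with a window held the E2F motif. The third element searched was the CHR (TTTGAA or TTTAAA, both strands), known from genes that peak later, at mitosis. It was found in 10 of 37 members (27%), a share close to that of all genes (30.6%), and in 17 of 21 mitosis genes with a window (81%), of which 1 held the E2F motif.

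**Figure D1:**
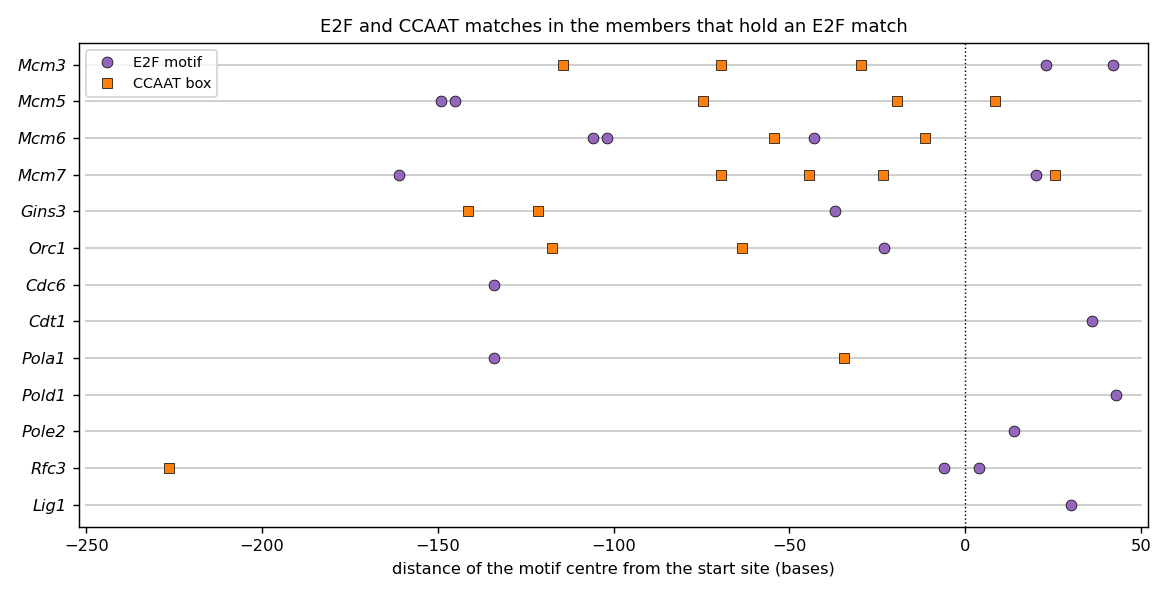
Positions of E2F motif matches (circles) and CCAAT boxes (squares) relative to the RefSeq start site, in bases, for the 13 members that hold an E2F match; each row is a gene, with matches of all its start windows drawn in 1 row. The E2F matches of Mcm6 and Orc1 lie before the start, whereas those of Mcm3, Cdt1, Lig1, Pold1 and Pole2 lie after it.

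The sorted groups differed in the markers of their lineages. All 9 T lineage markers of the list used here, among them Cd3g, Thy1 and Il2ra (CD25), were higher in T lineage than in wildtype LN cells; Thy1 and Il2ra defined the gate. Dendritic cell markers were lower for 6 of 7 genes and granulocyte and monocyte markers for 8 of 10. The summed dendritic cell marker level lay between 12.93 and 13.16 in deficient LN, 13.09 and 13.36 in wildtype LN and 9.21 and 9.27 in T lineage arrays, on the log2 scale. The granulocyte and monocyte sum lay between 12.97 and 13.19, 13.02 and 13.72, and 11.20 and 11.92 in the same order, and that of the T lineage markers between 10.28 and 10.44, 10.35 and 10.48, and 13.63 and 14.15. T lineage replicate 2 had the lower T lineage sum (13.63, against 14.15 in replicate 1). It also had the higher granulocyte and monocyte sum (11.92 against 11.20) and the higher summed level of the 45 members (15.93 against 15.87). Whether these differences between the 2 arrays are linked was not tested. H2-Aa, an MHC class II gene of dendritic cells that the gate does not name, stood 5.37 below its wildtype LN level in T lineage cells. Markers of B cells (1 of 5 lower), erythroid cells (0 of 3 either way), stroma (0 of 10 either way) and stress response (1 of 6 lower) gave these counts between wildtype LN and T lineage cells. No marker could be called absent, because the table holds no detection calls. In bulk samples, fewer cells of a type, or fewer cells in S phase, and less RNA per cell cannot be told apart. The part of cell composition in the results below was not tested. Array medians lay between 6.95 and 7.04.

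T lineage cells carried more transcript of part of the replication machinery than wildtype LN cells. Of the 45 members, 11 rose (Gins2, Pold2, Chaf1a, Orc1, Pola2, Chaf1b, Mcm10, Mcm3, Rpa2, Mcm7 and Tyms) and 0 fell by limma at an adjusted p under 0.05, a threshold that 18.0% of all 21789 probesets passed (7.66% higher and 10.4% lower). The members' share was 22.9% of their 48 probesets, near the overall share for both directions, but all of it was in the upward direction. The rises were small, from 1.22-fold for Tyms to 1.60-fold for Gins2. The median difference over the member probesets was 0.21 on the log2 scale, against 0.04 over all probesets, and the full range was -0.20 to 0.67. At an unadjusted p under 0.05 there were 24 of the 48 member probesets, none of them lower, against 29.4% of all probesets. The difference was above 0 for 38 of 48 member probesets (79.2%), against 60.3% of all probesets. In 32 member probesets both T lineage arrays lay above all 3 wildtype LN arrays, and in 3 (Rfc1, Fen1 and a probeset of Rpa3) both lay below; over all probesets these shares were 28.0% and 19.8%. The summed level of the members lay between 15.74 and 15.78 in wildtype LN, 15.74 and 15.80 in deficient LN and 15.87 and 15.93 in T lineage arrays.

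Against deficient LN cells the same T lineage arrays gave 7 members higher and 0 lower, where 14.1% of all probesets were called (5.98% higher and 8.16% lower). The T lineage arrays are wildtype, so gate and genotype differ together here and cannot be told apart. The members that rose were Pold2, Gins2, Orc1, Pola2, Mcm10, Chaf1a and Orc2. The median difference over member probesets was 0.16, against 0.04 over all probesets, 43 of 48 member probesets lay above 0 (89.6%, against 60.9%), and in 29 the arrays of the groups did not overlap with T lineage higher (23.6% of all probesets). Gins3 alone had both T lineage arrays below the deficient ones (17.1% of all probesets). These 2 comparisons share the T lineage arrays, so they are set side by side and are not independent. They gave 6 calls in common, 5 calls in the comparison with wildtype LN alone (Chaf1b, Mcm3, Mcm7, Rpa2 and Tyms) and 1 in the comparison with deficient LN alone (Orc2). The difference between them is the genotype comparison itself, which no member passed. The number of calls moved with single arrays: without T lineage replicate 2 it was 4 against wildtype LN and 3 against deficient LN. Without T lineage replicate 1, wildtype LN replicate 2 or wildtype LN replicate 3 it was 7, 6 and 6 against wildtype LN. A second quantile normalization gave 21 and 13 rises, leaving out the dimmest 40% of probesets gave 13 rises against deficient LN, and 0 members fell in any setting run. These counts are given without the share of all probesets called in the same settings. They therefore do not show whether the members moved more than all probesets did.

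**Figure D2:**
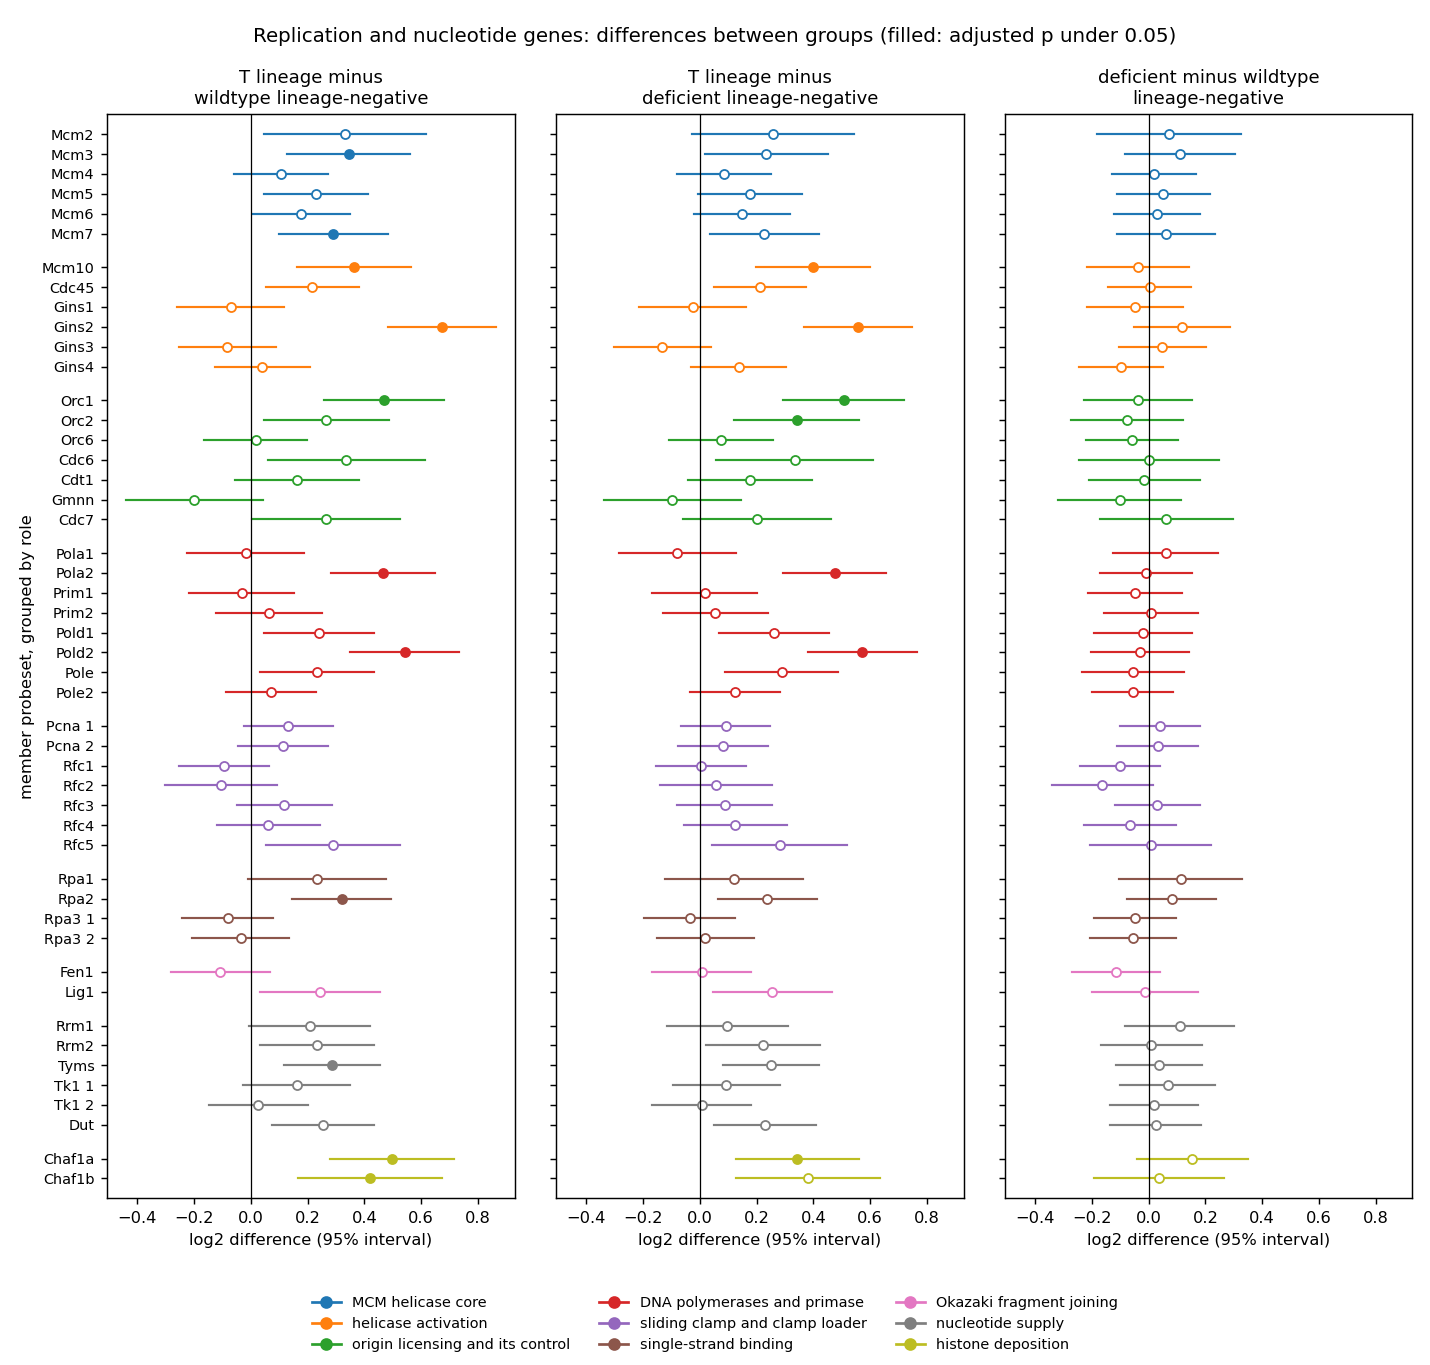
Log2 differences of the 48 member probesets, ordered by role, with their 95% confidence intervals, for T lineage minus wildtype LN, T lineage minus deficient LN and deficient LN minus wildtype LN. Both comparisons with T lineage cells lie mostly to the right of 0, up to 0.67 for Gins2, while the genotype comparison stays between -0.16 and 0.15.

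The genes of the Mcm proteins that form the helicase ring were all higher in T lineage cells by value. Of these 6 genes, 2 passed the test against wildtype LN, and the median difference was 0.26. Mcm3 stood at 9.95, 10.13 and 10.24 in deficient LN, 10.10, 9.91 and 9.98 in wildtype LN and 10.35 and 10.34 in T lineage arrays. Both T lineage arrays lay above all 6 lineage-negative arrays, and the rise over wildtype LN was 0.35 (SE 0.10, 1.27-fold, limma adjusted p = 0.0324). Against deficient LN the Mcm3 difference was 0.23 (limma adjusted p = 0.155). Mcm7, another ring subunit, stood at 9.96, 10.01 and 10.05 in deficient LN, 9.98, 9.88 and 9.97 in wildtype LN and 10.12 and 10.35 in T lineage arrays. It rose by 0.29 over wildtype LN (SE 0.09, 1.22-fold, limma adjusted p = 0.0421), with a difference of 0.23 from deficient LN (limma adjusted p = 0.12). The differences of the other subunits from wildtype LN were 0.33 for Mcm2, 0.23 for Mcm5, 0.18 for Mcm6 and 0.11 for Mcm4, with limma adjusted p between 0.0859 and 0.396. For these 4 as well, both T lineage arrays lay above the 3 wildtype LN arrays, as they did for 28.0% of all probesets. The share of all probesets with T lineage arrays above all 6 lineage-negative arrays was not counted, here and below. The Mcm3 call was lost without T lineage replicate 1 or 2 (limma adjusted p = 0.136 and 0.115) and without wildtype LN replicate 2 or 3 (0.104 and 0.0869), as well as with all probesets of the table (0.076) and the replicate block (0.0512). The Mcm7 call was lost without any wildtype LN array (limma adjusted p = 0.0719, 0.124 and 0.0814 for replicates 1, 2 and 3), without deficient LN replicate 2 or 3 (0.0525 and 0.0582) and without T lineage replicate 2 (0.308, difference 0.18). It passed in 7 of 17 alternative settings, and was also lost with all probesets of the table (0.0815), median centring (0.0533), the replicate block (0.0651) and only the 2 groups fitted (0.0652).

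Among the factors that switch the loaded ring on, Gins2 showed the largest change of all members. Gins2, a subunit of the Gins complex, stood at 9.40, 9.32 and 9.40 in wildtype LN, 9.41, 9.44 and 9.63 in deficient LN and 10.03 and 10.06 in T lineage arrays. The T lineage arrays were clear of all 6 others. The rise was 0.67 over wildtype LN (SE 0.09, 95% interval 0.48 to 0.86, 1.60-fold, limma adjusted p = 0.000291) and 0.56 over deficient LN (1.47-fold, limma adjusted p = 0.00132). The other subunits of the same complex did not pass: Gins1 differed by -0.07, Gins3 by -0.08 and Gins4 by 0.04 from wildtype LN, with limma adjusted p from 0.532 to 0.771. Gins3 stood at 9.07, 9.14 and 9.01 in wildtype LN, 9.15, 9.12 and 9.11 in deficient LN and 8.93 and 9.05 in T lineage arrays. Mcm10, which binds the ring and helps to open it, stood at 8.93, 8.88 and 9.12 in deficient LN, 9.04, 9.01 and 8.98 in wildtype LN and 9.29 and 9.46 in T lineage arrays. It rose by 0.36 over wildtype LN (SE 0.09, 1.29-fold, limma adjusted p = 0.0179) and by 0.40 over deficient LN (limma adjusted p = 0.0137), with no overlap between the groups. Cdc45, the third part of the active helicase, differed by 0.22 from wildtype LN (limma adjusted p = 0.0676). The Mcm10 call was lost without T lineage replicate 2 (limma adjusted p = 0.148 against wildtype LN and 0.124 against deficient LN) and, against wildtype LN, without wildtype LN replicate 3 (0.0581).

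Of the 7 origin licensing genes, 1 rose against wildtype LN and 2 against deficient LN. Orc1, the subunit of the origin recognition complex whose level is regulated through the cell cycle, stood at 8.23, 8.23 and 8.22 in wildtype LN, 8.29, 8.07 and 8.20 in deficient LN and 8.57 and 8.82 in T lineage arrays. It rose by 0.47 over wildtype LN (SE 0.10, 1.38-fold, limma adjusted p = 0.00605) and by 0.51 over deficient LN (1.42-fold, limma adjusted p = 0.00478). The T lineage arrays lay above all 6 others, the second one further than the first. Orc2 differed by 0.27 from wildtype LN (limma adjusted p = 0.0981) and rose by 0.34 over deficient LN (1.27-fold, limma adjusted p = 0.044). Orc6 differed by 0.02 from wildtype LN (limma adjusted p = 0.92). Cdc6, which loads the ring, stood at 9.13, 8.87 and 8.91 in wildtype LN, 8.94, 8.77 and 9.20 in deficient LN and 9.37 and 9.24 in T lineage arrays, a difference of 0.34 from wildtype LN (limma adjusted p = 0.0959). Cdt1, its partner, differed by 0.16 and the kinase gene Cdc7 by 0.26 (limma adjusted p = 0.315 and 0.165). Gmnn encodes geminin, the inhibitor of Cdt1, and had the lowest difference of all members, -0.20 (limma adjusted p = 0.263). Its arrays stood at 10.00, 10.32 and 10.05 in wildtype LN, 10.10, 10.03 and 9.94 in deficient LN and 9.83 and 10.02 in T lineage cells, so that the groups overlapped. Without T lineage replicate 2 the Orc1 call was lost against wildtype LN (limma adjusted p = 0.0708) and deficient LN (0.0546). The Orc2 call was lost without deficient LN replicate 1 or 2 (limma adjusted p = 0.0701 and 0.0885), wildtype LN replicate 2 or 3 (0.0627 and 0.0572) and T lineage replicate 1 or 2 (0.192 and 0.126). It passed in 6 of 17 alternative settings, and was also lost with all probesets of the table (0.104), median centring (0.0722), array weights (0.0768), the replicate block (0.058) and only the 2 groups fitted (0.0755).

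Among the polymerase genes, the accessory subunits Pold2 and Pola2 rose and the other 6 did not pass. Pold2, which holds the polymerase delta complex together, stood at 8.60, 8.52 and 8.61 in wildtype LN, 8.42, 8.63 and 8.58 in deficient LN and 9.06 and 9.17 in T lineage arrays. Its rise was 0.54 over wildtype LN (SE 0.09, 1.46-fold, limma adjusted p = 0.00136) and 0.57 over deficient LN (1.49-fold, limma adjusted p = 0.00121). Pola2, the second subunit of polymerase alpha, which starts each new strand together with primase, stood at 8.46, 8.37 and 8.38 in wildtype LN, 8.41, 8.30 and 8.47 in deficient LN and 8.81 and 8.92 in T lineage arrays. It rose by 0.47 over wildtype LN (SE 0.08, 1.38-fold, limma adjusted p = 0.00248) and by 0.47 over deficient LN (1.39-fold, limma adjusted p = 0.00285). In both genes the T lineage arrays were separated from all 6 lineage-negative arrays. The catalytic subunit of the alpha enzyme, Pola1, differed by -0.02 (limma adjusted p = 0.927) from wildtype LN, with a 95% interval of -0.22 to 0.19. Pold1 and Pole, the catalytic subunits of the delta and epsilon enzymes, differed by 0.24 and 0.23 (limma adjusted p = 0.0872 and 0.108). Prim1 and Prim2, the primase subunits, and Pole2 differed by -0.03, 0.06 and 0.07 (limma adjusted p from 0.574 to 0.847). Gins2, Pold2 and Pola2 were the members that passed in all 17 alternative settings in both comparisons with T lineage cells.

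The genes of the clamp and its loader did not pass in either comparison, with Rfc5 at an unadjusted p under 0.05. Pcna, the sliding clamp, was measured by 2 probesets. The first stood at 12.49, 12.46 and 12.49 in wildtype LN, 12.55, 12.47 and 12.54 in deficient LN and 12.60 and 12.62 in T lineage arrays. Both T lineage arrays were the highest, yet the difference from wildtype LN was 0.13 (95% interval -0.03 to 0.29, limma adjusted p = 0.252), and the second probeset gave 0.11. Among the loader subunits, Rfc5 had the highest difference, 0.29 (limma adjusted p = 0.0943), from 9.64, 9.35 and 9.51 in wildtype LN to 9.80 and 9.78 in T lineage arrays, with 9.34, 9.60 and 9.59 in deficient LN. Rfc1, the large subunit, differed by -0.09 and Rfc2 by -0.10 (limma adjusted p = 0.426 and 0.492), and Rfc3 and Rfc4 by 0.12 and 0.06. Of the 3 subunit genes of the single-strand binding protein, 1 rose. Rpa2 stood at 9.18, 9.06 and 9.12 in wildtype LN, 9.12, 9.25 and 9.23 in deficient LN and 9.48 and 9.40 in T lineage arrays. Its rise over wildtype LN was 0.32 (SE 0.08, 1.25-fold, limma adjusted p = 0.0164), and the difference from deficient LN was 0.24 (limma adjusted p = 0.0728). The Rpa2 call was lost without wildtype LN replicate 2 (limma adjusted p = 0.0581) and without T lineage replicate 1 (0.117). Rpa1, the DNA-binding subunit, stood at 9.47, 9.19 and 9.31 in wildtype LN, 9.45, 9.34 and 9.52 in deficient LN and 9.42 and 9.69 in T lineage arrays, with overlapping groups (difference 0.23, limma adjusted p = 0.188). The 2 probesets of Rpa3 differed by -0.08 and -0.04.

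Neither gene of Okazaki fragment joining passed by limma, with Lig1 at an unadjusted p under 0.05. Lig1, the ligase that seals the fragments, stood at 9.88, 9.76 and 9.79 in wildtype LN, 9.62, 9.86 and 9.90 in deficient LN and 10.03 and 10.08 in T lineage arrays, a difference of 0.24 (limma adjusted p = 0.111). Fen1, the nuclease that trims their flaps, stood at 9.52, 9.60 and 9.55 in wildtype LN, 9.35, 9.52 and 9.45 in deficient LN and 9.41 and 9.48 in T lineage arrays, a difference of -0.11 (limma adjusted p = 0.416). For Fen1 both other groups lay below wildtype LN, without a call.

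In deoxynucleotide supply, Tyms rose and the other 4 members did not pass. Tyms, thymidylate synthase, stood at 9.55, 9.45 and 9.53 in wildtype LN, 9.51, 9.62 and 9.51 in deficient LN and 9.77 and 9.82 in T lineage arrays. It rose by 0.29 over wildtype LN (SE 0.08, 1.22-fold, limma adjusted p = 0.0239), and its difference from deficient LN was 0.25 (limma adjusted p = 0.0529). Dut, which clears dUTP and makes the precursor that Tyms uses, stood at 9.69, 9.72 and 9.60 in wildtype LN, 9.66, 9.74 and 9.69 in deficient LN and 9.84 and 10.01 in T lineage arrays. The Dut difference of 0.25 from wildtype LN just missed the threshold (limma adjusted p = 0.0528). The ribonucleotide reductase subunits Rrm1 and Rrm2 differed by 0.21 and 0.23 (limma adjusted p = 0.183 and 0.11), and the 2 probesets of Tk1, thymidine kinase, by 0.16 and 0.03. The Tyms call was lost without wildtype LN replicate 2 or 3 (limma adjusted p = 0.08 and 0.0557) and without T lineage replicate 1 or 2 (0.0761 and 0.133), as well as with the replicate block (0.0662).

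Histone deposition was the role in which both members rose. Chaf1a and Chaf1b are subunits of the chromatin assembly factor that places new histones behind the fork. Chaf1a stood at 9.21, 9.02 and 8.99 in wildtype LN, 9.20, 9.17 and 9.31 in deficient LN and 9.46 and 9.68 in T lineage arrays. It rose by 0.50 over wildtype LN (SE 0.10, 1.41-fold, limma adjusted p = 0.00491) and by 0.34 over deficient LN (1.27-fold, limma adjusted p = 0.0406). Chaf1b stood at 8.52, 8.21 and 8.39 in wildtype LN, 8.21, 8.49 and 8.53 in deficient LN and 8.79 and 8.80 in T lineage arrays. Its rise over wildtype LN was 0.42 (SE 0.11, 1.34-fold, limma adjusted p = 0.0278), and the difference from deficient LN was 0.38 (limma adjusted p = 0.0506). In both genes the T lineage arrays lay above all others. The Chaf1a call was lost without T lineage replicate 2 (limma adjusted p = 0.0577 against wildtype LN and 0.279 against deficient LN) and, against deficient LN, without deficient LN replicate 1 or 2 (0.103 and 0.0885) or wildtype LN replicate 2 or 3 (0.0561 and 0.0527). The call against deficient LN passed in 7 of 17 alternative settings, and was also lost with all probesets of the table (0.0977), median centring (0.0604), array weights (0.0694), the replicate block (0.0951) and only the 2 groups fitted (0.0628). The Chaf1b call was lost without wildtype LN replicate 2 or 3 (limma adjusted p = 0.0914 and 0.0658) and without T lineage replicate 1 or 2 (0.109 and 0.112), as well as with all probesets of the table (0.0767).

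**Figure D3:**
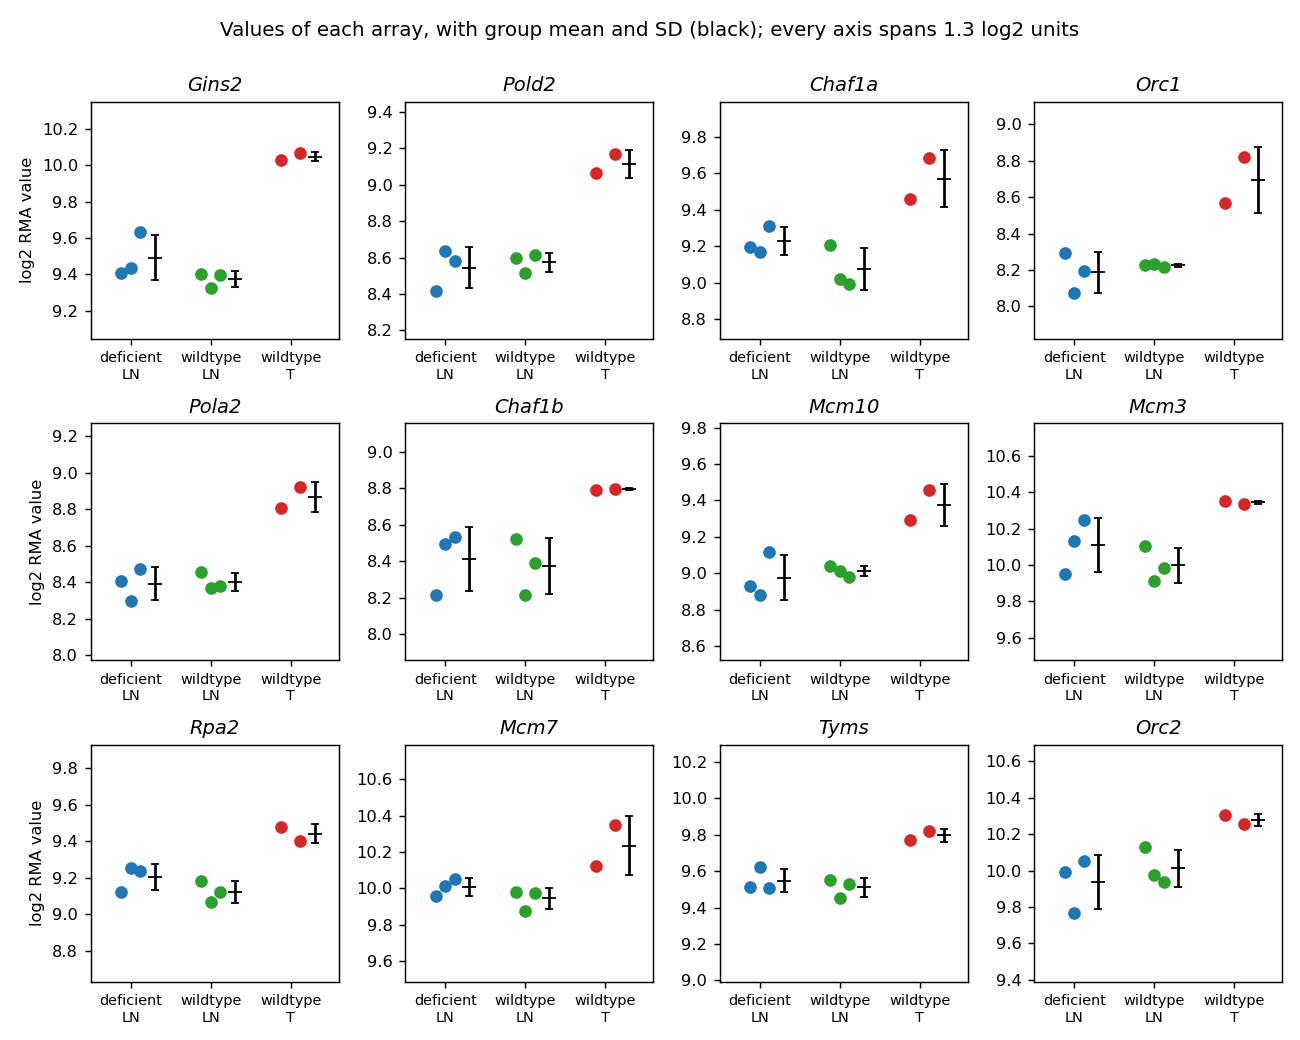
Log2 level of each array for the 12 members that rose in T lineage cells over either lineage-negative group, by group; points are single arrays and the black marks are group means with their SD. The 2 T lineage arrays of Gins2, at 10.03 and 10.06, lie above all 6 lineage-negative arrays, whose highest value is 9.63.

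No replication gene passed the test between deficient and wildtype LN cells. In deficient cells 0 of 45 members rose and 0 fell, in the main fit and in each of the 17 alternative settings. In the main fit limma called 0.00459% of all probesets (1, Il2ra, lower in deficient cells and a gate marker). The median over member probesets was 0.01, against -0.01 over all probesets, and 27 of 48 lay above 0. The differences ran from -0.16 to 0.15, and all 48 were smaller than 0.2 in size. No 95% interval reached beyond -0.34 or 0.35, each member taken alone. None of the 48 probesets had an unadjusted p under 0.05, against 1071 of all probesets. The 3 members with the smallest p were Rfc2, Chaf1a and Fen1. Rfc2 stood at 9.96, 10.15 and 10.00 in deficient LN, 10.15, 10.30 and 10.15 in wildtype LN and 10.03 and 10.16 in T lineage arrays, a genotype difference of -0.16 (95% interval -0.34 to 0.02, limma adjusted p = 0.999). Chaf1a differed by 0.15 and Fen1 by -0.11 (limma adjusted p = 0.999 for both). The arrays of the genotypes did not overlap for Gins2, which was higher in deficient cells, and for Gins4, Rfc1 and Fen1, which were lower; 3.93% and 6.01% of all probesets behaved so. Rfc1 stood at 10.33, 10.24 and 10.29 in deficient LN, 10.40, 10.41 and 10.35 in wildtype LN and 10.30 and 10.29 in T lineage arrays. Of the 10 stromal markers, 0 passed between genotypes and 5 lay above 0, with a median of 0.05; Sparc had the smallest p (difference 0.54, limma adjusted p = 0.0997). Their summed level was higher in the deficient arrays (10.26 to 10.39) than in the wildtype LN arrays (10.08 to 10.15) and lay at 10.16 in both T lineage arrays. Sparc and Cxcl12 were also lower in T lineage than in deficient LN cells (-0.54 and -0.62, limma adjusted p = 0.0021 and 0.0475). The part of stromal transcripts in the members' values was not tested.

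Other genes of the fork and of nucleotide synthesis were read from further lists. Among 39 measured fork and origin genes outside the set (40 listed), 5 rose (12.8%) and 5 fell (12.8%) in T lineage against wildtype LN cells. Of all tested genes, 7.97% rose and 10.7% fell, so the share of falls was near that of all genes. The median difference of the list was 0.03. Uhrf1, which guides maintenance of DNA methylation behind the fork, rose by 0.81 (limma adjusted p = 0.00571). Pold4, the small subunit of polymerase delta, fell by 0.99 (limma adjusted p = 6.64e-05), in contrast in direction to Pold2. Orc4, an origin recognition subunit, fell by 0.75 (limma adjusted p = 0.000363), and Top2a, topoisomerase II alpha, fell by 0.68 in 1 probeset (limma adjusted p = 0.028), while the other gave -0.18 (limma adjusted p = 0.162). The Top2a call was lost without wildtype LN replicate 1 or 2 (limma adjusted p = 0.0892 and 0.0525) and T lineage replicate 1 or 2 (0.0806 and 0.138), as well as with all probesets of the table (0.0912). Leaving out wildtype LN replicate 1 or 2 or T lineage replicate 1 or 2 took the counts of this list to 3, 3, 2 and 3 higher and 3, 3, 2 and 3 lower, and a trended and robust variance prior gave 8 higher. Dbf4, the activator of Cdc7, differed by -0.03 (limma adjusted p = 0.908).

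Further lists of nucleotide synthesis genes outside the set were read beside all tested genes, of which 7.97% rose and 10.7% fell. Of 13 measured thymidylate and deoxynucleotide genes, 8 rose, 1 fell and 4 did not pass, with a median of 0.38. Shmt2 and Mthfd1, enzymes of the folate cycle that feeds thymidylate and purine synthesis, rose by 1.15 and 0.85 (2.22-fold and 1.80-fold, limma adjusted p = 0.00418 and 0.000251), and Dctd, deoxycytidylate deaminase, rose by 0.47 (limma adjusted p = 0.00175). Samhd1, an enzyme that breaks down deoxynucleotides and is abundant in myeloid cells, fell by 1.67 (3.19-fold, limma adjusted p = 3.07e-05). Most dendritic cell and monocyte markers also fell, and the part of cell composition in the values of this list was not tested. The rises of this list numbered 5 and 4 without T lineage replicate 1 and 2. Of 16 measured genes that make purine and pyrimidine bases, 10 rose, 1 fell and 5 did not pass, with a median of 0.41. Cad, which starts pyrimidine synthesis, rose by 1.05 (2.07-fold, limma adjusted p = 0.00195), Impdh1 of guanine nucleotide synthesis by 0.78 (limma adjusted p = 7.27e-05), the CTP synthase gene Ctps by 0.63 (limma adjusted p = 0.00054) and Pfas of purine synthesis by 0.62 (limma adjusted p = 0.00418). The gene that fell in this list was Ctps2 (-0.32, limma adjusted p = 0.0118; named after its value was seen), and 0 fell without T lineage replicate 1 or 2. Against deficient LN, where the same T lineage arrays entered, 6.20% of all tested genes rose and 8.48% fell. The counts in that comparison were 6 higher and 1 lower of 13, and 9 higher and 1 lower of 16. There the rises of the first list were 2 without T lineage replicate 2, those of the second were 4 without T lineage replicate 1 or 2 and 5 without deficient LN replicate 1 or 2, and the fall of the second was lost without any 1 array.

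Among the 19 regulators of S phase entry, 2 rose and 3 fell in T lineage against wildtype LN cells, and 14 did not pass. The share of probesets called was 23.8%, near the 18.0% of all probesets. Rb1, the retinoblastoma protein that holds E2F in check, fell by 0.84 (1.79-fold, limma adjusted p = 2.99e-05), and E2f7, a repressive E2F, fell by 0.56 (limma adjusted p = 0.000988). Tfdp1, a dimer partner of the E2F proteins, rose by 0.52 in 1 probeset (limma adjusted p = 0.00179), while the other gave 0.21 (limma adjusted p = 0.0742). E2f4 rose by 0.41 (limma adjusted p = 0.0126), a call lost without T lineage replicate 2 (0.119), which left 1 rise in this list, against 6 after a second quantile normalization. The activating members E2f1 and E2f2 differed by 0.15 and 0.26, and the cyclin E genes Ccne1 and Ccne2 by 0.19 and 0.03, with limma adjusted p from 0.157 to 0.872. E2f8 differed by -0.04 (limma adjusted p = 0.878).

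The mitosis genes mark the other end of the division cycle. Of 24 measured, 0 rose and 5 fell (20.8%) in T lineage against wildtype LN cells, where 7.97% of all genes rose and 10.7% fell. The median was -0.05, and 8 probesets had an unadjusted p under 0.05 in either direction (33.3%, near the 29.4% of all probesets). Kif23, a motor protein of cell division, fell by 0.65 (1.57-fold, limma adjusted p = 0.000182), Cenpf, a kinetochore protein, by 0.50 (limma adjusted p = 0.00136), and Nusap1, a spindle protein, by 0.40 (limma adjusted p = 0.00684). Mki67, the gene of the proliferation marker Ki-67, fell by 0.30 (limma adjusted p = 0.0185). The Nusap1 call was lost without T lineage replicate 2 (limma adjusted p = 0.0658), and the Mki67 call without wildtype LN replicate 1 or 3 (0.0611 and 0.0512) or T lineage replicate 1 or 2 (0.0928 and 0.0824), as well as with the replicate block (0.058). The number of mitosis genes that fell was 3 without wildtype LN replicate 1 or 3, 3 without T lineage replicate 1 and 2 without T lineage replicate 2, and at most 1 rose in any setting run. Against deficient LN cells 2 fell (8.33%, near the 8.48% of all genes) and 0 rose. The falls in that comparison numbered 1 without deficient LN replicate 3. Between the genotypes, 0 genes of these 5 lists passed by limma, with 6 of their 115 probesets at an unadjusted p under 0.05 (5.22%, near the 4.92% of all probesets).

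**Figure D4:**
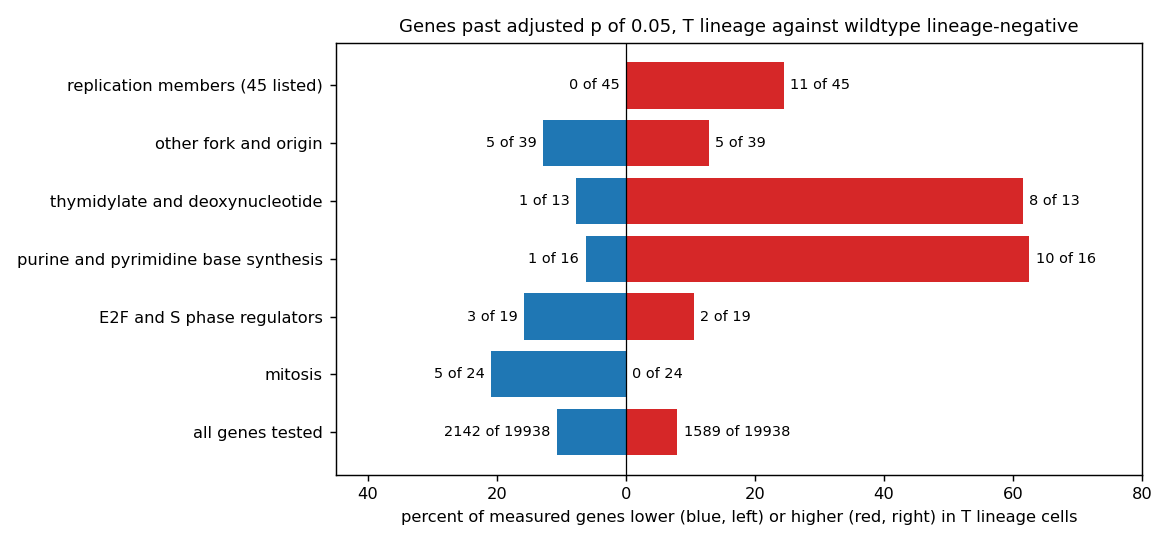
Percent of the measured genes of each list that rose (red, to the right) or fell (blue, to the left) in T lineage against wildtype LN cells, with the counts printed at the bars and all tested genes as the lowest bar. The members had 11 rises and 0 falls, purine and pyrimidine synthesis had 10 rises of 16 genes, and the mitosis list had 5 falls and 0 rises.

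The E2F motif and the other elements were counted in members that rose and in members that did not pass, with no test of the difference. Of the members with a promoter window, the motif was present in 3 of 10 that rose over wildtype LN (Mcm3, Mcm7 and Orc1) and in 10 of 27 that did not pass. The CCAAT box was present in 7 of 10 and 16 of 27, and the CHR in 1 of 10 and 9 of 27. Gins2, the largest rise, had no entry in the table, while the Pold2 window printed above has a CCAAT box and no E2F match.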

How the data were processed

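The deposited log2 values are RMA values (background correction, joint normalisation and summary of each probeset) from Partek 6.5, per the submitters' processing notes. The array's genome build is not given in the sources used here. Of 35399 probesets, 11989 had no gene and 1621 had several, and both kinds were left out of the main fit. The other 21789, naming 19938 genes, were fitted with limma 3.58.1 in R 4.3.3 (lmFit, eBayes). All 8 arrays entered 1 fit as 3 groups with 5 residual degrees of freedom. Two-sided p-values were computed per probeset with Benjamini-Hochberg adjustment over all 21789, and a call was an adjusted p under 0.05. Precision is limited by the 8 arrays. The fit was tested on simulated data.

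The members and lists were chosen with earlier results of these data known. Array values are given for up to 2 members per role of smallest p in T lineage minus wildtype LN, the 3 of smallest p between genotypes, and the 5 largest rises and 5 largest falls. Outside the set, up to 4 called genes per list of largest change and the regulators Ccne1, Ccne2, E2f1, E2f2, E2f8 and Dbf4 are named. A gene with several probesets is named by that of smallest p. Summed levels are the log2 of summed linear values of a list. Alternatives left out each array, dropped the dimmest 40% of probesets, kept all probesets, normalised or centred again, weighted arrays, blocked on replicate number, changed the variance prior, fitted only the groups compared or averaged the probesets of a gene. The same alternatives for the other lists, except averaging, were added after seeing the data. Promoters came from RefSeq (GRCm38.p6). The targeted gene was not analysed here.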

Additional observations from a re-analysis of the deposited data

How the results depend on the processing

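Over 17 alternative settings, 0 members were called between genotypes and 0 were lower in T lineage cells, and the median member difference kept within 0.082, the pooled SD of array medians over the members, of its value. Of the single-member results, 2333 kept their side of the threshold, 55 lost a call, 42 gained one and 0 reversed. Most of the kept results had no call in the main fit, among them every genotype result, and only a called result could lose its call. For the counts of risen members in alternative settings, calls over all probesets are given only for the replicate block. The members that rose over wildtype LN numbered 11, from 4 to 12 with 1 array left out, and 21 after a second quantile normalization. Over deficient LN they numbered 7, from 3 to 10 with 1 array left out, 13 after a second quantile normalization and 13 without the dimmest 40% of probesets. Between genotypes, the 1 probeset called of all became 0 with all probesets of the table, with a second quantile normalization and with median centring, 6 with array weights, 11 with a trended and robust prior, 2 with only the 2 groups fitted, 3 with probesets of a gene averaged, and 0 to 12 with 1 array left out (12 without wildtype LN replicate 1). The cause was not tested. With the replicate number as a block the counts were 8 and 5 members higher over wildtype and deficient LN, and 0 members and 0 probesets between genotypes; over all probesets they were 3467, 2680 and 0. The labels give the lineage-negative arrays separate mice. Same-numbered arrays of the genotypes correlated in their deviations from the group means with r of -0.13, 0.02 and 0.04. Arrays with different numbers gave -0.11 to 0.08. With 3 arrays per group these values cannot decide whether the numbers pair the genotypes, and no pairs were assumed. Same-numbered T lineage arrays correlated with wildtype LN arrays at 0.16 and 0.12 and with deficient LN arrays at -0.14 and -0.25. The deviations of the 2 T lineage arrays are mirror images, so swapping their numbers only changes the sign of each value. With only 2 pairs and no label of a shared origin, the numbers were not taken as pairs. With 2 T lineage arrays, a fit without either rests on a single array that is assumed to vary like the other groups.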

Other observations

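Among the mitosis genes, 20 of 24 probesets lay below 0 in deficient minus wildtype LN cells, with a median of -0.05, and none passed by limma (lowest unadjusted p = 0.058). Of the members, 21 of 48 lay below 0 in that comparison, as did 11662 of all 21789 probesets. The summed mitosis level lay between 14.93 and 15.01 in deficient LN and 15.00 and 15.06 in wildtype LN arrays, so the groups overlapped. The mitosis probesets were read on the same arrays, so their signs are not independent. In the same comparison, Orc4 and Pold4, the origin and polymerase genes that fell in T lineage cells, differed by -0.30 and -0.27, without a call. Both genes were singled out after their values were seen. Their falls in T lineage cells and these differences subtract the same wildtype LN arrays, so the directions are not independent.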
